A study of Mus musculus with 6 samples.

Results

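Proteasome genes were followed from pluripotent ESCs to RA-treated NCs in the RNA-seq data. The genes were chosen by name: a symbol of Psma, Psmb, Psmc, Psmd, Psme, Psmf or Psmg followed by digits. This gave 48 of the 22969 gene names in the deposited table, each on a single row. All cells came from E14Tg2a, a mouse line, between passages 37 and 40. The ESC group held 3 samples of monolayers kept with LIF. The NC group held 3 samples of the same line cultured without LIF in 1 μM RA for 48 h (2 days). Each sample was total RNA from a pair of plates of this one line, and no second line was compared.

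The proteasome is the protease that degrades most short-lived proteins of the cell after they are tagged with ubiquitin. Its 20S core is a barrel in which rings of alpha subunits (Psma genes) close a chamber formed by rings of beta subunits (Psmb genes), and Psmb5, Psmb6 and Psmb7 encode the beta subunits that cut peptide bonds. The 19S particle caps the core: its base holds the ATPases (Psmc genes) that unfold substrates, and its lid (several Psmd genes) removes the ubiquitin chain. Interferon induces the alternative catalytic subunits Psmb8, Psmb9 and Psmb10, which replace the constitutive ones in the immunoproteasome, and PA28 (Psme1 and Psme2), an activator that opens the core. Proteasome activity has been linked to the maintenance of pluripotency in ESCs. Activity was not measured here, only RNA.

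The table holds 1 FPKM value per gene and condition (a read density: sequenced fragments per kilobase of mRNA, corrected for library depth), which the authors' Cuffdiff run estimated from the 3 samples of each group. It carries no values of single samples. No SD can therefore be computed, and no test between the conditions was made from the FPKM values. The authors' own test columns were left aside, so the differences below are not set against the spread between samples. A ratio is the NC over the ESC value without a pseudocount, and a gene was called higher or lower when it was past a stated fold. FPKM summed to 770592 in ESCs and 628679 in NCs. Rescaling both columns to the same sum would add 0.29 to each log2 ratio, so a gene less than 0.29 lower on the log2 scale turns to higher in NCs. This holds for 20 of the genes below, whose direction is that of the values as deposited. The depth of single libraries is unknown. Among single-transcript genes the smallest FPKM values fell in steps, from which 1 fragment in a transcript with 1 kb open to alignment was worth about 0.0138 FPKM in ESCs against 0.0135 in NCs. A second, smaller step lay at 0.0119 and 0.00714 FPKM, so fragment numbers are given at both. All 5 pluripotency markers looked at, among them Pou5f1 and Nanog, were at least 2-fold lower in NCs, and all 5 RA response genes, among them Cyp26a1 and Rarb, were at least 2-fold higher. Of 5 neural markers, Sox1 and Pax6 were at least 2-fold higher in NCs and Nes 1.42-fold higher (12.9 FPKM in ESCs against 18.3 in NCs). The neuronal genes Tubb3 (33.4 FPKM in ESCs against 7.54 in NCs) and Map2 (3.18 FPKM and 2.35 FPKM) were lower. Summed FPKM was 7.91 in ESCs and 20.02 in NCs over 6 extraembryonic endoderm markers, of which 4 were at least 2-fold higher in NCs among the 5 with a mean of at least 1 FPKM. It was 11.1 and 45.1 over 6 fibroblast markers, of which 5 passed and 5 were higher. The part of such cells in the values below was not tested.

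Of the genes of the 20S core and the 19S particle, all but Psmb3 (log2 ratio -0.68) were within 1.5-fold between the conditions. The immunoproteasome genes, Psme2 of PA28, the PA200 gene Psme4, the assembly gene Psmg1 and the testis gene Psma8 were more than 1.5-fold lower in NCs as deposited. With Psmb3 these were 8 of the 47 genes counted below, a share near the 18.8% of all genes. Of the 48 genes, 47 had a mean FPKM over both conditions of at least 1, the filter used for counts, and Psmb11 did not. None of these 47 genes was at least 2-fold higher in NCs, beside 11.1% of the 12782 genes past the filter, and 3 were at least 2-fold lower, beside 9.94% of all genes. These 3 genes were Psmb8, Psmb10 and Psma8, the last of which was within 2-fold (2 genes left) when ratios were centred on the median of all genes, rescaled to equal sums or computed with a pseudocount of 1. At a limit of 1.5-fold, 8 genes were lower and 0 higher as deposited, beside 18.8% and 19.3% of all genes. After rescaling to equal sums 5 genes remained past this limit (Psmb8, Psmb10, Psmb9, Psma8 and Psme4). The shares of all genes were not recomputed for that scaling, so the 5 genes have no such share beside them. In bulk RNA, fewer cells that express a gene and less RNA per cell cannot be told apart.

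The differences were small for most genes. The ratio was within 1.2-fold for 32 of the 47 genes, against 33.4% of all genes past the filter, and within 1.5-fold for 39 of them, against 61.9%. The median log2 ratio was -0.15 over the proteasome genes, -0.04 over all genes and 0.15 over the proteasome genes after rescaling to equal sums. Relative to the median of all genes, the proteasome genes were thus 0.11 lower on the log2 scale under either scaling. The middle of the distribution, from the lower to the upper quartile, ran from -0.34 to -0.02 for the proteasome genes and from -0.44 to 0.41 for all genes. In NCs, 35 of 47 genes had the lower value as deposited, beside 52.4% of all genes. After rescaling 15 of the 47 were lower. The share of all genes was not recomputed for that scaling, which moves every ratio alike, so the 52.4% does not apply to it.

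**Figure D1:**
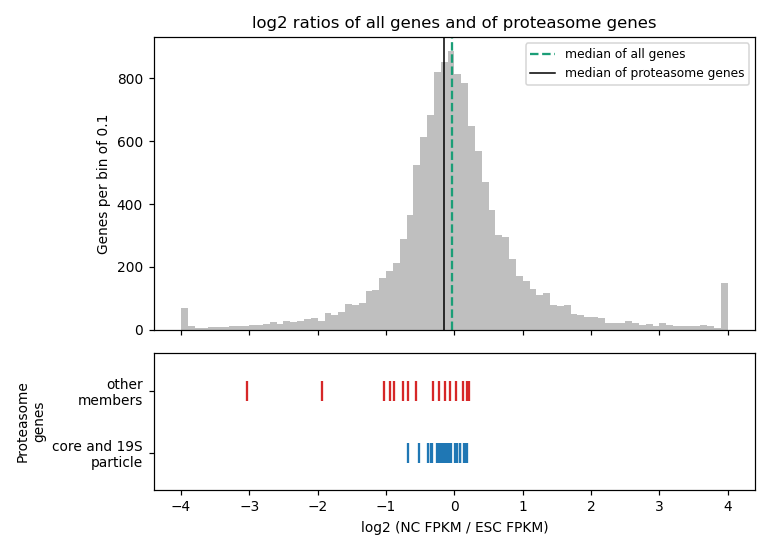
Number of genes (vertical axis) by log2 ratio of NC to ESC FPKM (horizontal axis, bins of 0.1, with ratios beyond the axis put in the outermost bins) for all genes with a mean FPKM of at least 1, above a mark for each proteasome gene past the same filter. The median of the proteasome genes (solid line, -0.15) lies close to that of all genes (dashed line, -0.04), genes of the core and 19S particle lie in a narrow band, and Psmb8 and Psmb10 stand at the far left.

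Most of these genes are among the most abundant mRNAs, so they were also set against genes of like abundance, a limit chosen after the values were seen. The mean FPKM was at least 50 for 36 of the proteasome genes and for 1876 of all names. Of the 36 genes, 0 were at least 2-fold lower or higher, where 7.52% of the 1876 genes were lower and 3.41% higher. Past 1.5-fold, 4 were lower and 0 higher, where 19.8% of the 1876 genes were lower and 6.29% higher. The median log2 ratio was -0.15 for the 36 proteasome genes and -0.22 for the 1876 genes, so at this abundance the proteasome genes stood slightly above, not below, the median of other genes.

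**Figure D2:**
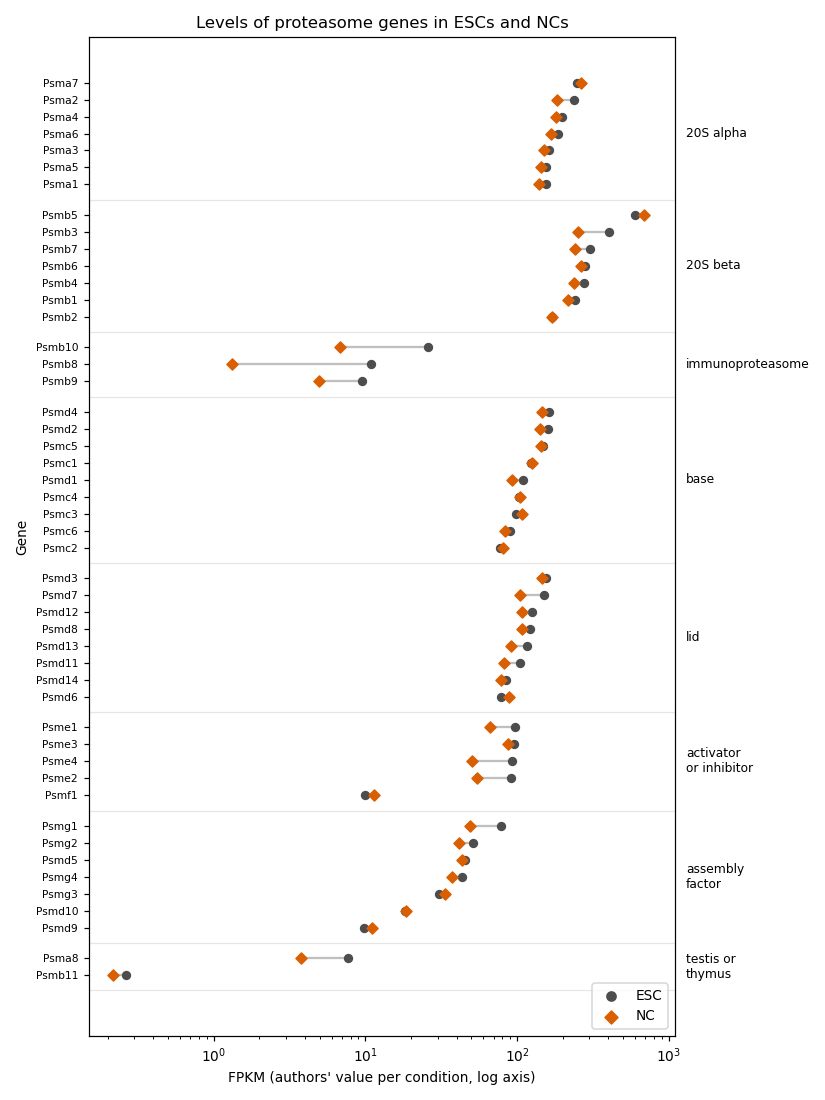
FPKM of each of the 48 proteasome genes in ESCs (circles) and NCs (diamonds) on a log axis, grouped by class and joined by a line within a gene. Symbols of most 20S, base and lid genes lie close to each other between 76.6 and 683 FPKM, while Psmb3, Psmd7, Psmb8, Psmb9, Psmb10, Psme1, Psme2, Psme4, Psmg1 and Psma8 are displaced to the left in NCs.

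The 7 genes of the alpha ring, which forms the gate of the core, had 155 to 249 FPKM in ESCs and 140 to 264 FPKM in NCs. Psma7 was the most abundant in both conditions and Psma1 the least. Psma2 had the largest difference of the ring, with 239 FPKM in ESCs against 183 in NCs and a log2 ratio of -0.38. Psma7, with 249 FPKM in ESCs against 264 in NCs, was the alpha gene with a higher NC value as deposited. The other 5 alpha genes were 1.07- to 1.11-fold lower in NCs as deposited. Psma4 and Psma6 had 198 and 186 FPKM in ESCs against 180.3 and 168 in NCs, and Psma1, Psma3 and Psma5 had 155, 162 and 155 FPKM against 140, 150.5 and 144. The order of the 7 genes by level was thus led by Psma7 and Psma2 in ESCs and in NCs. Over the ring the median log2 ratio was -0.14, and 0.16 after rescaling to equal sums. Of the Psma5 transcript, 54.5% of the 50-base words also occur in other annotated genes, mainly in the locus Gm8394, so its level depends on how reads with several placements were shared out. Of the 48 genes, 11 shared more than 10% of their words in this way. Among them were Psma3 (22.0%) and Psma4 (19.2%) of this ring, Psmc1 (17.6%), Psmd2 (25.6%), Psmd11 (12.5%) and Psmg3 (21.8%). Their values are less certain for the same reason.

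The beta ring held the most abundant and the most uneven levels of the particle. Psmb5 encodes the subunit with chymotrypsin-like activity and had the highest FPKM of all 48 genes, 599.7 in ESCs and 683 in NCs. Psmb6 and Psmb7, which encode the caspase-like and the trypsin-like subunit, had 279 and 305 FPKM in ESCs and 265 and 242 FPKM in NCs. On the FPKM scale Psmb5 therefore stood above both of its catalytic partners in each condition. The other 4 beta genes, which encode subunits without catalytic activity, had 169 to 404 FPKM in ESCs and 170.0 to 252 FPKM in NCs. Among them Psmb3 differed most (log2 ratio -0.68), with 404 FPKM in ESCs against 252 in NCs. Psmb2 had 169 FPKM in ESCs against 170.0 in NCs, the closest pair of values of the core. Psmb1 (241 and 218 FPKM) and Psmb4 (277 and 239 FPKM) lay between these. The values of Psmb5 and Psmb3 are uncertain, since 54.1% and 55.8% of the 50-base words of their transcripts also occur in other annotated genes. Over the 7 beta genes the median log2 ratio was -0.15 as deposited and 0.15 with both columns rescaled.

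The base of the 19S particle was the class closest to the median of all genes. Its 9 genes had a median log2 ratio of -0.05, which is 0.01 below that of all genes, and 0.24 after rescaling. The ATPase genes Psmc1 to Psmc6 had 76.6 to 148 FPKM in ESCs and 81.0 to 143 FPKM in NCs. Their ratios ran from 1.07-fold lower for Psmc6 to 1.11-fold higher in NCs for Psmc3, which had 98.0 FPKM in ESCs against 108 in NCs. Psmd1 and Psmd2 encode the large scaffold subunits of the base. Psmd1 had 110 FPKM in ESCs against 91.9 in NCs, a ratio of 1.19, and Psmd2 had 159 against 141, a ratio of 1.13. Their difference toward ESCs was below the shift between the scalings. By level, Psmc5 (148 and 143 FPKM) and Psmc1 (123 and 126 FPKM) led the ATPases, Psmc4 had 103 and 105 FPKM, and Psmc2 was the lowest in both conditions (76.6 and 81.0 FPKM). Psmd4, the gene of a ubiquitin receptor, had the highest level of the base in both conditions, 162 and 147 FPKM.

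Among the 8 lid genes, 7 had the lower value in NCs as deposited, beside 52.4% of all genes. After rescaling only Psmd7, Psmd11 and Psmd13 did. The median log2 ratio was -0.20 (0.10 after rescaling). Psmd7, whose product pairs with the deubiquitinase of the lid, had the largest difference, with 149.5 FPKM in ESCs against 105 in NCs, a 1.43-fold lower value. Psmd14, the gene of that deubiquitinase, had 84.8 FPKM in ESCs against 78.7 in NCs. The paired subunits thus differed in ratio, by 0.51 on the log2 scale for Psmd7 against 0.11 for Psmd14, both toward ESCs. Psmd11 had 104 against 82.6 FPKM and Psmd13 115 against 91.2, a 1.26- and a 1.27-fold lower value in NCs. Psmd3, the most abundant lid gene in both conditions, had 155 and 145 FPKM. Psmd8 (122 and 108 FPKM) and Psmd12 (126 and 107 FPKM) lay between these ratios. Psmd6 was the lid gene with the higher NC value, 88.1 FPKM against 78.6 FPKM. Within 1.5-fold lay all lid and base genes and 30 of the 31 genes of the core and 19S particle, Psmb3 being the exception.

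**Figure D3:**
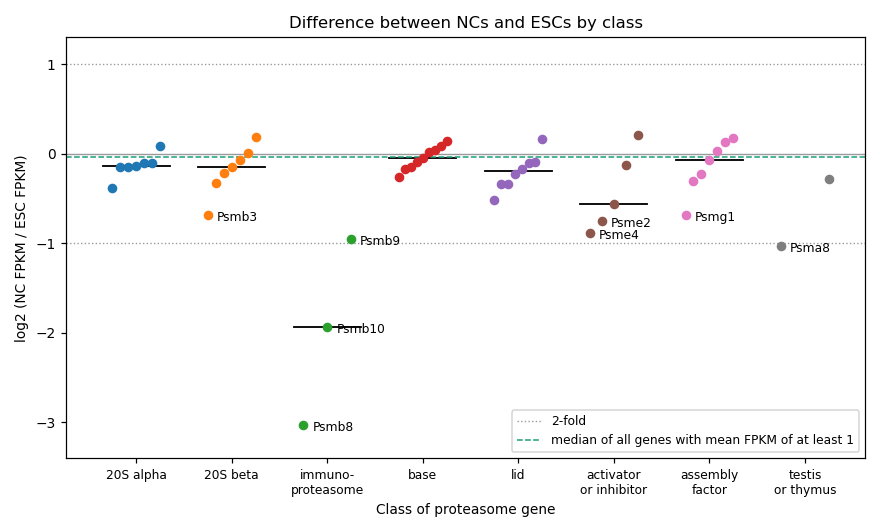
log2 ratio of NC to ESC FPKM (vertical axis) for each proteasome gene, by class (horizontal axis), with a bar at the median of each class but the last, dotted lines at 2-fold and a dashed line at the median of all genes. Genes past 1.5-fold are named. The medians of the 20S, base, lid and assembly classes lie between -0.20 and -0.05 (between 0.10 and 0.24 after rescaling to equal sums). That of the activators and inhibitor lies at -0.56 (-0.27 after rescaling) and that of the immunoproteasome at -1.93 (-1.64 after rescaling).

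The spread of levels within the particle was similar in both conditions for the alpha ring, the base and the lid. For the beta ring it was wider in NCs, a difference that includes Psmb5 and Psmb3, whose values are uncertain as given above. The coefficient of variation of FPKM over the subunit genes was 20.4% in ESCs and 24.2% in NCs for the alpha ring. It was 43.2% and 58.8% for the beta ring, where Psmb5 stood apart, 26.3% and 22.7% for the base, and 23.5% and 21.0% for the lid. The highest gene of the lid had 1.97 times the lowest in ESCs and 1.84 times in NCs. Summed over the genes of each part, FPKM in ESCs was 1.10 times that in NCs for the 20S core and 1.09 times for the 19S particle. The core and the particle that caps it hence had nearly the same ratio, a comparison that does not depend on the scaling. Within the particle the sums differed by 1.16 times for the lid and 1.04 times for the base, the lid being the part more abundant in ESCs relative to the rest.

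The immunoproteasome genes were far less abundant than their constitutive counterparts in ESCs, and lower still in NCs. Psmb8 (chromosome 17, 34197721 to 34201454) encodes the inducible partner of Psmb5 and had 10.8 FPKM in ESCs against 1.33 in NCs. This was 8.18-fold lower, the largest difference of the 48 genes, and corresponds to about 504 fragments in ESCs and 63 in NCs over the 3 samples of each group at the larger step, or 581 and 119 at the smaller. Psmb10 (chromosome 8, 105935735 to 105938444), the inducible partner of Psmb7, had 25.9 FPKM in ESCs against 6.81 in NCs and was 3.81-fold lower. Psmb9 (chromosome 17, 34181987 to 34187764), the inducible partner of Psmb6, had 9.53 FPKM in ESCs against 4.93 in NCs and was 1.93-fold lower, just within the 2-fold limit. All 3 genes were lower in NCs under either scaling. No 50-base word of their transcripts occurs in another annotated gene. The TruSeq kit was not stated to mark strand, and 14.7% of the exonic bases of Psmb8 overlap Gm20496 and 5.79% of those of Psmb9 overlap Tap1 on the other strand.

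Set against the constitutive gene in the same condition, a ratio that no scaling of the columns can move, the inducible share was lower in NCs for each pair. Psmb8 made up 1.78% of the summed FPKM of Psmb8 and Psmb5 in ESCs and 0.194% in NCs, so its ratio to Psmb5 was 9.31-fold lower. Psmb10 made up 7.85% of its pair with Psmb7 in ESCs and 2.74% in NCs, a 3.03-fold lower ratio. Psmb9 made up 3.30% of its pair with Psmb6 in ESCs and 1.83% in NCs, a 1.83-fold lower ratio. These ratios still carry the limits of the constitutive genes. As given above, 54.1% of the 50-base words of Psmb5 also occur in other annotated genes. Of the exonic bases of Psmb7, 11.8% overlap Nek6 on the other strand. The order of the pairs was Psmb10, Psmb9 and Psmb8 from the highest to the lowest share in both conditions. Psmb8 and Psmb9 sit near each other in the major histocompatibility region, yet their ratios differed by 8.18- against 1.93-fold.

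**Figure D4:**
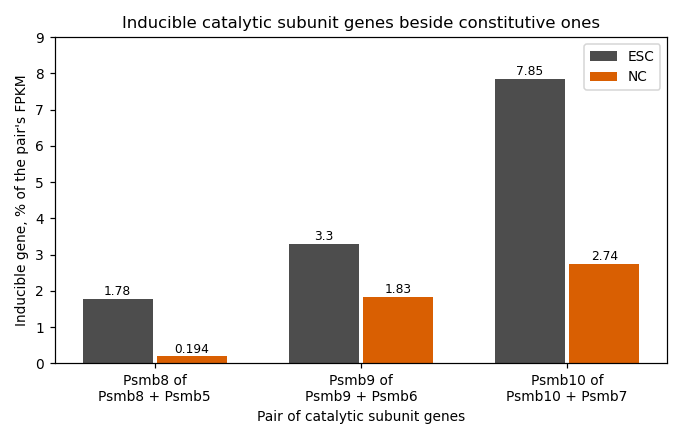
FPKM of each inducible catalytic subunit gene as a percentage of the FPKM of the inducible and constitutive gene together (vertical axis), for the 3 pairs (horizontal axis) in ESCs and NCs. The share was lower in NCs in each pair and was smallest for Psmb8, at 1.78% in ESCs and 0.194% in NCs.

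Leukocytes are cells rich in immunoproteasome. Of 6 leukocyte markers, 5 had a mean below 1 FPKM, Ptprc (CD45) was listed at 0 in both conditions and Lyz2 at 0 in ESCs. Cd68, which other cells also express, had 14.8 FPKM in ESCs against 3.30 in NCs. Irf1, an interferon response factor that drives immunoproteasome genes, had 36.6 FPKM in ESCs against 12.3 in NCs, a 2.97-fold lower value. The MHC class I activator Nlrc5 was at 0.213 and 0.211 FPKM. Tap1 and Tap2, peptide transporter genes next to Psmb9 and Psmb8, were 1.38- and 1.63-fold lower in NCs, whereas B2m, the light chain of MHC class I, was 1.24-fold higher. The part of Irf1 in the immunoproteasome values was not tested.

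The start-site sequences of these genes are shown because the inducible and constitutive genes are known to be driven by different factors. The windows are RefSeq promoters on GRCm38.p6 (mm10), from 250 bases before to 50 bases after the start, on the strand of the gene. Capitals mark matches on either strand to AANNGAAA (the core bound by interferon regulatory factors), TTCNNNGAA (the GAS site, an element of interferon-responsive genes) or TGACNNNGC (the antioxidant response element, the site of NFE2L1 and NFE2L2). Psmb8 is at chr17:34197945-34198244, Psmb9 at chr17:34187281-34187580, Psmb10 at chr8:105938343-105938642, Psmb5 at chr14:54617946-54618245, Psmb6 at chr11:70525107-70525406 and Psme1 at chr14:55578244-55578543.
Psmb8: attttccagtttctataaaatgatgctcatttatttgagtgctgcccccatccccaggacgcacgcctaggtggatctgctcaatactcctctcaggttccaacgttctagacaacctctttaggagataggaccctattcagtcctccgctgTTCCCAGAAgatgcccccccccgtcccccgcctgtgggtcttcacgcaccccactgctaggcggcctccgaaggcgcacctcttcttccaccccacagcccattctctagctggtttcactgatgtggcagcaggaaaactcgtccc
Psmb9: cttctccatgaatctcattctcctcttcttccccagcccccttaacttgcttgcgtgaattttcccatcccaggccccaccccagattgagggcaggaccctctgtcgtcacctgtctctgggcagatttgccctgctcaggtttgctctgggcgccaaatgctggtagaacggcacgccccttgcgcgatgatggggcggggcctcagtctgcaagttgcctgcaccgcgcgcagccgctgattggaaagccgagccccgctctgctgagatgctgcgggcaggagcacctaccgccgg
Psmb10: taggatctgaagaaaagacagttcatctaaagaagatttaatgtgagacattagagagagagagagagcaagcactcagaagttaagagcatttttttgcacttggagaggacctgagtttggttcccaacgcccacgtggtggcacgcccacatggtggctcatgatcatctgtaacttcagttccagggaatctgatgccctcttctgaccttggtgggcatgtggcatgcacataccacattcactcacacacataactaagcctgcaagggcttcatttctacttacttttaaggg
Psmb5: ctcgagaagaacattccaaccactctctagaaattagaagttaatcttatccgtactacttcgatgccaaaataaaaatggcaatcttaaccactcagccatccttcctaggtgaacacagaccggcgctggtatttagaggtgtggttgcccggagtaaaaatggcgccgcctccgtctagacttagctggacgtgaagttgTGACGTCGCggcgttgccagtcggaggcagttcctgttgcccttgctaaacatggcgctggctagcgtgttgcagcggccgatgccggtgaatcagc
Psmb6: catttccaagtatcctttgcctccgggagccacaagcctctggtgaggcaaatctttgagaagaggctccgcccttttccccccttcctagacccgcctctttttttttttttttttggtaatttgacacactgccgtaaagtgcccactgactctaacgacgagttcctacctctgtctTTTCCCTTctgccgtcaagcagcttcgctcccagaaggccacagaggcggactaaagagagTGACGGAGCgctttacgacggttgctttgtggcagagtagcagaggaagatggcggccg
Psme1: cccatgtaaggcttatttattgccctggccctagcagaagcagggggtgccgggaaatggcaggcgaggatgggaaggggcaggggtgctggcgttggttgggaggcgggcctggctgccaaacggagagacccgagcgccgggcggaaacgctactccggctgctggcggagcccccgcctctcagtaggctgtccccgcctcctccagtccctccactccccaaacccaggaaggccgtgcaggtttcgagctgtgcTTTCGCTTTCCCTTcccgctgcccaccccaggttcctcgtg

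The Psmb8 window holds a GAS match 97 bases before the start. The windows of Psmb9 and Psmb10 hold no match to these letters, which says nothing on factors that bind elsewhere. Psme1 holds overlapping AANNGAAA matches on the other strand just after the start. The constitutive genes Psmb5 and Psmb6 hold an antioxidant response element match 47 and 9 bases before the start, and Psmb6 also an AANNGAAA match 70 bases before it. Of the 48 genes, 40 had a window in the RefSeq table, with 43 windows in all. AANNGAAA occurred in 13 of the 43 windows (30.2%) and in 23.9% of all 32851 windows of the same length. TTCNNNGAA occurred in 3 (6.98%, and 8.30% of all), and TGACNNNGC in 6 (14.0%, and 12.4% of all), in Psmb5, Psmb6, Psmc6, Psmd9, Psmd12 and Psme4. The CCAAT box, searched as CCAAT, occurred in 14 windows (32.6%, and 37.4% of all). The shares among proteasome genes were thus near those of all promoters for each of these letters.

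Among the activators, the interferon-inducible PA28 genes and the nuclear activator PA200 were lower in NCs, and the nuclear PA28 gamma had nearly the same value. Psme1 (chromosome 14, 55578123 to 55581529), which encodes PA28 alpha, had 97.1 FPKM in ESCs against 65.9 in NCs, a 1.47-fold lower value just within the limit of 1.5-fold. Its neighbour Psme2 (chromosome 14, 55587441 to 55591113), which encodes PA28 beta, had 91.6 FPKM in ESCs against 54.4 in NCs, a 1.69-fold lower value. PA28 alpha and beta form one ring, and the values of their genes lay within 1.06-fold of each other in ESCs and within 1.21-fold in NCs. Psme2 shares 54.9% of its 50-base words with other annotated genes, chiefly Psme2b, and Psme1 shares 11.3%, so both are less certain.

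Psme3, which encodes PA28 gamma, had 95.6 FPKM in ESCs against 87.3 in NCs and was 1.09-fold lower. It was hence level with Psme1 and Psme2 in ESCs and the most abundant activator gene in NCs. Psme4 (chromosome 11, 30771726 to 30880361) encodes PA200, an activator linked to histone degradation. Psme4 had 93.1 FPKM in ESCs against 50.4 in NCs, a 1.85-fold lower value, and shares no 50-base word with another gene. Psmf1, which encodes the regulator PI31, had 9.90 FPKM in ESCs against 11.5 in NCs. These 5 genes had a median log2 ratio of -0.56, and of -0.27 after rescaling, and all but Psmf1 had the lower value in NCs as deposited. Psme3 turned to the higher value in NCs after rescaling.

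The assembly factors were less abundant than the subunits they help to join. PAC1 to PAC4, encoded by Psmg1 to Psmg4, guide the alpha ring together, and their genes had 30.4 to 78.3 FPKM in ESCs and 33.3 to 48.7 FPKM in NCs. Psmg1 differed most, with 78.3 FPKM in ESCs against 48.7 in NCs, a 1.61-fold lower value, while its dimer partner Psmg2 was 1.24-fold lower (51.5 and 41.5 FPKM). Psmg3 and Psmg4, which form the other dimer, had ratios of 1.10-fold higher and 1.17-fold lower in NCs. Chaperones of the base are encoded by Psmd5, Psmd9 and Psmd10. Psmd9 shares 25.5% of its exonic bases with Gm26745 on the other strand, and Psmg3 shares 9.68% with Gm26938 on its own strand. The genes Psmd5, Psmd9 and Psmd10 had 45.4, 9.78 and 18.2 FPKM in ESCs. In NCs they had 43.3, 11.1 and 18.5 FPKM, all within 1.2-fold of the ESC value. These 7 genes had a median log2 ratio of -0.07, and of 0.23 after rescaling.

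Subunit genes known from single tissues were at the low end. Psma8, which encodes an alpha subunit of male germ cells, had 7.72 FPKM in ESCs against 3.78 in NCs. This was 2.04-fold lower, just past the 2-fold limit. The log2 ratio was -1.03 as deposited, -0.99 centred on the median of all genes, -0.87 with a pseudocount of 1 and -0.73 after rescaling, and no 50-base word of its transcripts occurs in another gene. Psmb11, the thymus-specific relative of Psmb5, had 0.264 FPKM in ESCs against 0.217 in NCs, about 42 and 36 fragments at the larger step or 49 and 67 at the smaller, below the filter in both conditions.

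Of other genes of the pathway, 36 were in the table and 35 had a mean FPKM of at least 1. Past 2-fold as deposited, 2 were lower in NCs and 0 higher, beside the 9.94% and 11.1% of all genes given above. After rescaling to equal sums 1 was lower and 3 higher, a scaling for which the shares of all genes were not recomputed. The 2 lower as deposited were Irf1 and Ubqln4 (within 2-fold after rescaling), a shuttle that carries ubiquitinated proteins to the proteasome, which had 103 FPKM in ESCs against 48.9 in NCs. The median log2 ratio of the 35 genes was -0.11. Among 9 further proteasome parts, Adrm1, a ubiquitin receptor, was 1.16-fold lower in NCs as deposited, the lid gene Shfm1 1.12-fold higher, and the maturation factor Pomp 1.23-fold lower. AI314180, which encodes the proteasome adaptor ECM29, had 10.4 FPKM in ESCs against 19.2 in NCs, a 1.84-fold higher value and the largest difference of these parts. The deubiquitinase gene Uchl5 had 55.8 and 38.9 FPKM, and Usp14 43.3 and 41.0 FPKM.

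Nfe2l1 and Nfe2l2, known activators of proteasome gene transcription, had lower values in NCs under either scaling. Nfe2l1, the factor that restores proteasome synthesis when the protease is inhibited, had 67.6 FPKM in ESCs against 47.1 in NCs, a 1.44-fold lower value. Nfe2l2, which acts under oxidative stress, had 41.5 FPKM in ESCs against 23.7 in NCs, and its inhibitor Keap1 6.81 and 10.4 FPKM. Ddi2 and Ngly1, which process the NFE2L1 protein, were 1.15- and 1.33-fold higher in NCs. The ubiquitin fusion gene Rps27a had 3126 FPKM in ESCs against 2332 in NCs, and the polyubiquitin gene Ubb 534 against 442 FPKM. The 15 genes of ubiquitin and its shuttles had a median log2 ratio of -0.11, with 7 higher and 8 lower in NCs as deposited. Past 1.5-fold as deposited, 2 of the 15 genes were higher in NCs, beside 19.3% of all genes. Only 1, Ubqln4, was lower, beside 18.8% of all genes. The 2 higher genes were Zfand5, which encodes a proteasome activator (13.0 FPKM in ESCs against 22.5 in NCs), and the shuttle gene Ubqln2 (24.9 against 42.1).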

How the data were processed

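RNA was sequenced from 3 ESC and 3 NC samples. Per the labels and methods, the authors aligned reads to mm10 with TopHat2 (version 2.0.8, on top of Bowtie2, version 2.1.0), built transcript models with Cufflinks 2.0.2, merged them by Cuffmerge, and estimated levels with Cuffdiff. The deposited FPKM values are 1 per gene and condition, estimated by the authors from the 3 samples; the NC heading reads FPK and was taken as FPKM. The annotation release and the normalization option are not given in the sources used here. The other columns hold the authors' own fold changes, test statistics and p- and q-values and were not used.

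Where a name stood on several rows (160 names), the row with the higher mean was kept. Counts used genes with a mean FPKM of at least 1, called past 2-fold or 1.5-fold, without a pseudocount. The designs written for values per replicate did not apply, so no test was made. Depth was read from steps in the lowest FPKM values, with a fragment length of 200 bases, at both steps and the median coding transcript length of the gene; such numbers cover counting error only. Positions, overlaps and shared 50-base words came from GENCODE M21 (GRCm38), promoters from RefSeq. Named genes were all genes matching the rule, genes of the pathway list past 2-fold, and others of the lists chosen after their values were seen. The members and lists were chosen with earlier results of these data known. The computation was tested on simulated data. Python 3.11.15, numpy 2.4.6, pandas 2.3.3 and matplotlib 3.10.9 were used. Alternatives were pseudocounts of 0.1 and 1, no filter or a mean of at least 5 or 50, centring, rescaling to equal sums, and summed rows.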

Additional observations from a re-analysis of the deposited data

How the results depend on the processing

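A result was taken as kept when a ratio or value moved by less than 1.5-fold and held its sign, and when a count stayed within 1.5 times. Of 187 counts, medians and ratios recomputed under 8 alternatives, single genes not included, 173 were kept. Many of these could not move: each proteasome gene stands on 1 row, and the 47 genes have a mean of at least 5 FPKM. Psma8 was within 2-fold with centring, a pseudocount of 1 or rescaling, which left 2 genes at least 2-fold lower in place of 3. Rescaling both columns to the same sum turned the median log2 ratio positive for the proteasome genes (0.15), the alpha ring (0.16), the beta ring (0.15), the base (0.24), the lid (0.10) and the assembly factors (0.23), since it adds the same amount to every ratio, and 20 of 47 genes changed sign. With it, 5 genes were at least 1.5-fold lower in place of 8, and 32 genes were higher and 15 lower in place of 12 and 35. In the pathway list 3 genes were at least 2-fold higher and 1 lower in place of 0 and 2. The shares of all genes were not recomputed for this scaling. With a mean of at least 50 FPKM, a limit chosen after seeing the data, 0 genes were at least 2-fold and 4 at least 1.5-fold lower, because the immunoproteasome genes and Psma8 were left out. With a pseudocount of 1, the log2 ratio of Psmb8 to Psmb5 in NCs was -8.20 in place of -9.01 and the log2 ratio of Psmb8 -2.35 in place of -3.03. No paired analysis was possible because the table holds 1 value per condition, and for the same reason no replicate could be left out.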

Other observations

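The lid of the proteasome is built like the COP9 signalosome, the complex that removes the ubiquitin-like protein NEDD8 from cullin ligases, so its genes were looked at as well, from lists written after the proteasome values were seen. All 9 COP9 signalosome genes were within 1.5-fold as deposited and after rescaling to equal sums, beside 61.9% of all genes as deposited, with log2 ratios from -0.25 for Cops7a to 0.18 for Cops2 and a median of -0.06 as deposited. Cops5, which encodes the catalytic subunit and is the counterpart of Psmd14, had 75.4 FPKM in ESCs against 67.6 in NCs. Genes of the NEDD8 pathway were less even. Nedd8 itself had 163 FPKM in ESCs against 161 in NCs, whereas Uba3, a subunit of its activating enzyme, had 63.4 and 38.8 FPKM, and Ube2m, its conjugating enzyme, 54.5 and 91.9 FPKM.

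Among 8 cullin genes, the scaffolds of the largest family of ubiquitin ligases, 0 were past 2-fold as deposited, beside 9.94% of all genes lower and 11.1% higher. Cul1 and Cul9 pass it on the higher side after rescaling to equal sums, for which the shares of all genes were not recomputed. Cul9 lay near the filter, with 1.02 FPKM in ESCs against 1.79 in NCs. Cul1 had 35.0 FPKM in ESCs against 65.8 in NCs, a 1.88-fold higher value and the largest difference of the cullins. Cul4b had 93.2 FPKM in ESCs against 70.3 in NCs, and its relative Cul4a 29.8 and 34.8 FPKM. Psmc3ip, a recombination cofactor that the naming rule leaves out, had 32.9 FPKM in ESCs against 35.0 in NCs. None of these differences was tested, since the table holds 1 value per condition.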
